A study of Mus musculus with 2 samples.

Results

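The miR-1, miR-206 and miR-133 genes of the mouse are 8 microRNA genes: Mir206, Mir133b, Mir1a-1, Mir133a-2, Mir1a-2, Mir133a-1, Mir1b and Mir133c. They were picked by name from the 2202 microRNA genes in the count tables, and all 8 were found there. The libraries were made from myocytes of C2C12, a mouse myoblast line of the C3H strain that began from crushed thigh muscle, after 72 h of differentiation. Both libraries belong to 1 group, biological replicates 1 and 2, so the comparisons are between partners of a locus, between copies of a hairpin and between the libraries. Each replicate has its own biosample in the labels, which do not say whether the cultures were separate. Every SD therefore measures the spread between these libraries and can be technical in part. Every p sets the difference between them against counting error only, and that difference can be technical in part too. C2C12 is a single cell line, so the libraries describe that line and not muscle tissue.

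MicroRNAs of the miR-1, miR-206 and miR-133 families are often called myomiRs because they are enriched in striated muscle. The genes lie in pairs, except Mir1b and Mir133c. Each pair has a miR-1 or miR-206 hairpin and a miR-133 hairpin made from the same primary transcript. The muscle transcription factors MyoD, myogenin, MEF2 and SRF drive these transcripts. Mature miR-1 and miR-206 begin with the same seed, the bases that pair with target messenger RNAs, and promote myoblast differentiation in part by repressing the histone deacetylase gene Hdac4. The miR-133 microRNAs repress SRF and have been tied to myoblast proliferation. The pair of miR-206 and miR-133b is specific to skeletal muscle, whereas the pairs of miR-1 and miR-133a are also active in the heart.

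The hairpins of the abundant pair are shown first, 5′ to 3′, because nearly all counts of these 8 genes came from them. Capitals mark the mature arms, and the sequences are those of RefSeq on build GRCm38.p6, plus strand of chromosome 1. In the Mir206 hairpin of 73 bases the arms span bases 8 to 30 and 46 to 67. In the Mir133b hairpin of 119 bases they span bases 29 to 50 and 66 to 87.
Mir206: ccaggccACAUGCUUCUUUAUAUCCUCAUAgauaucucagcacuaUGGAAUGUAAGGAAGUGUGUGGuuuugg
Mir133b: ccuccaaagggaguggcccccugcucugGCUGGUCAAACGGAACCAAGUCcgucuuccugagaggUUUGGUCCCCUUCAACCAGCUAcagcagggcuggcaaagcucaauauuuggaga

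The mature sequences are shown with the seed (bases 2 to 8) in capitals, because the seed ties miR-206 to miR-1 and the last base sets miR-133b apart. RefSeq's table held sequences for 3 of the 8 genes, the third being the 5p arm of Mir1a-1.
miR-206-3p: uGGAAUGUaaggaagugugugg
miR-206-5p: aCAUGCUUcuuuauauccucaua
miR-133b-3p: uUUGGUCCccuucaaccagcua
miR-133b-5p: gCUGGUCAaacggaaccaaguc
miR-1a-1-5p: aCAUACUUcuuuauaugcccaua

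The miR-206-3p sequence matched 18 of 22 bases of its closest stretch in both Mir1a hairpins, with the first 10 bases identical, seed included. On the other arm, miR-206-5p and the Mir1a-1 hairpin matched at 20 of 23 bases, but the seeds differed. The miR-133b-3p sequence matched 21 of 22 bases in both Mir133a hairpins, and the base that differed was the last. In Mir133c, 18 of 22 bases matched and the seed was the same. Over the 1738 mature sequences of the RefSeq table, the seed of miR-206-3p recurred in miR-6349 and miR-6382, whose genes had 0 counts in both libraries, and the seed of miR-133b-3p recurred in no other entry. That table held no entry for miR-133a, miR-133c or the 3p arm of miR-1a, so the search could not find these family members.

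Depth and purity were as follows. Replicate 1 held 15349205 reads and replicate 2 held 18450359. Reads assigned to microRNA genes in sense numbered 7581366 and 9865298, and these totals define CPM, counts per 1000000 assigned counts. The counts cover a whole hairpin, with both arms together, and CPM was not divided by length, since a read stands for a short RNA of about the same size from any gene. Detection means at least 10 counts in each library and was reached by 314 of the 2202 genes. Multi-mapped reads, which made up 22.01% and 17.9% of all reads, are given to no gene in these tables. The 8 muscle marker genes, most of them the genes described here, took 35.5% of the assigned counts in replicate 1 and 42.8% in replicate 2. Mir206 and Mir133b alone took 35.4% and 42.7%, so this share mostly repeats those genes. The 24 measured marker genes of blood, endothelium, nerve, epithelium, liver and pluripotent cells together took 0.0334% and 0.0234%, 5 of them were detected, and 9 had no count in either library. Of the 24, 9 share 20 bases with another hairpin, the neural Mir9 and Mir124a copies among them, so a low unique count says little about those. The 15 that share none included all 5 detected markers and 2 at 0. The highest were the blood marker Mir142, with 675 and 1752 counts in replicates 1 and 2, and the endothelial marker Mir126a, with 1646 and 423. Both exceeded each of the Mir1a and Mir133a copies, but those copies also share 20 bases with another hairpin. Their low unique counts therefore say little, as for the neural copies. Mir142 and Mir126a differed between the libraries in opposite directions.

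Mir206 and Mir133b held all but a trace of the unique counts of the 8 genes. Counts of Mir206 were 2584038 in replicate 1 and 4111798 in replicate 2, or 34.1% and 41.7% of the assigned counts (exact 95% intervals 34.05 to 34.12 and 41.65 to 41.71, counting error only). Mir133b had 103180 and 104254 counts, or 13610 and 10568 CPM. The other 6 genes together had 107 and 180 counts, or 14.1 and 18.2 CPM. The Mir1a and Mir133a copies share sequence, so reads that fit both copies are missing from these counts, as described below. In a bulk library, fewer cells with a microRNA and less of it per cell cannot be told apart.

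**Figure D1:**
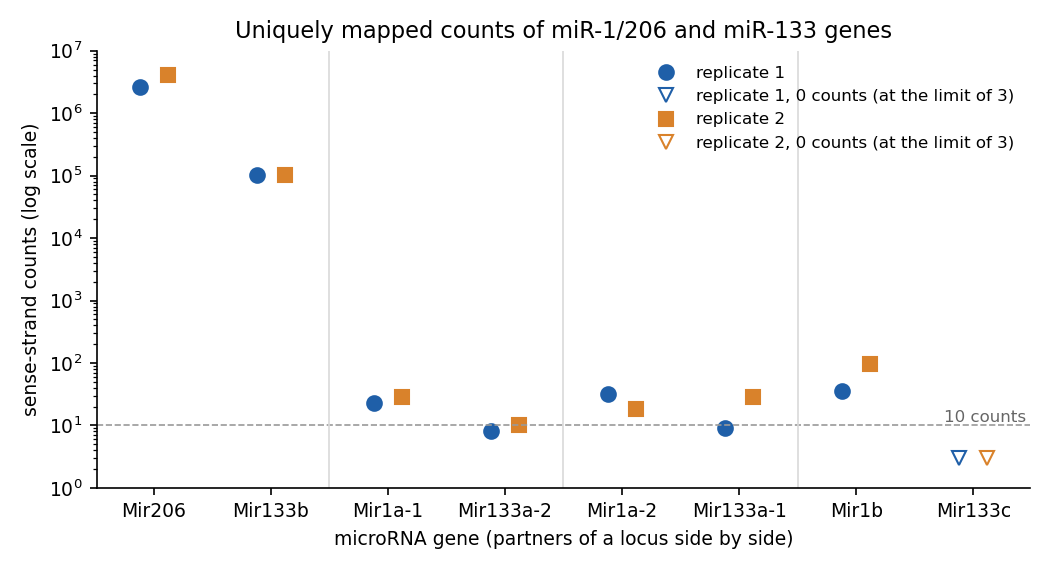
Sense-strand counts (log axis) of the 8 genes in replicate 1 (circles) and replicate 2 (squares), with partners of a locus side by side and open triangles at 3 counts for genes with 0. Mir206 and Mir133b stand at 103180 counts or more and the other 6 genes at 96 or fewer.

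Ordered by mean level, Mir206 came first with 378817 ± 53707 CPM and Mir133b next with 12089 ± 2151 CPM (SD, n = 2 for each mean here). Mir206 ranked 1 and Mir133b 12 among all genes in both libraries. Mir1b followed with 7.17 ± 3.62 CPM, then Mir1a-2 with 3.02 ± 1.69, Mir1a-1 with 2.94 ± 0.138, Mir133a-1 with 2.01 ± 1.17 and Mir133a-2 with 1.03 ± 0.0294 CPM. That order holds for unique counts, from which reads of shared stretches are missing. The ranges of Mir1a-2 and Mir1a-1 over the libraries overlapped, and the lower library of Mir1a-1 equalled the higher one of Mir133a-1, at 2.84 CPM. Mir133a-1 and Mir133a-2 differed by 1 count in replicate 1, where they had 9 and 8. No read of either library was given to Mir133c, and its 0 counts are compatible with at most 0.396 CPM in replicate 1 and 0.304 in replicate 2 (3 counts, the one-sided limit at 95%). It lies alone on the minus strand of chromosome 2 (29475215 to 29475294, mm10), in an intron of Med27 on the other strand, with none of the other 7 genes beside it.

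The first locus holds Mir206 (ENSMUSG00000065559.1; chromosome 1, 20679010 to 20679082) and Mir133b (ENSMUSG00000065480.1; 20682769 to 20682887), 3686 bases apart on the plus strand. The annotation places both in exons of Gm28653, a long noncoding RNA. Together they took 35.4% of the assigned counts in replicate 1 and 42.7% in replicate 2. The ratio of Mir206 to Mir133b was 25.04 in replicate 1 (exact 95% interval 24.9 to 25.2) and 39.4 in replicate 2 (39.2 to 39.7), with a mean of 32.2 ± 10.2 (SD, n = 2). The intervals cover counting error only and did not overlap, so the ratio itself differed between the libraries by more than counting error. Mir133b made up 3.84% of the pair in replicate 1 and 2.47% in replicate 2.

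The second locus holds Mir1a-1 (ENSMUSG00000070144.1; chromosome 2, 180389048 to 180389124) and Mir133a-2 (ENSMUSG00000065460.1; 180398379 to 180398482), 9254 bases apart on the plus strand. No other annotated gene overlaps either hairpin. In replicate 1, 23 reads were given to Mir1a-1 and 8 to Mir133a-2. In replicate 2 the numbers were 28 and 10. The partner ratio was 2.88 in replicate 1 (exact 95% interval 1.24 to 7.43) and 2.80 in replicate 2 (1.32 to 6.46). By unique counts Mir1a-1 was thus the higher partner in both libraries, at the depth of 31 and 38 counts for the locus.

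The third locus holds Mir1a-2 (ENSMUSG00000106348.1; chromosome 18, 10785481 to 10785552) and Mir133a-1 (ENSMUSG00000065399.2; 10782909 to 10782976), 2504 bases apart on the minus strand. Both lie in an intron of Mir133a-1hg on their own strand and in an intron of Mib1, a ubiquitin ligase gene of Notch signalling, on the other. In replicate 1, 32 reads were given to Mir1a-2 and 9 to Mir133a-1. In replicate 2 the numbers were 18 and 28. The partner ratio was 3.56 in replicate 1 (exact 95% interval 1.66 to 8.47) and 0.643 in replicate 2 (0.335 to 1.20). The higher partner was therefore Mir1a-2 in replicate 1 and Mir133a-1 in replicate 2, and in replicate 2 the interval held a ratio of 1. Over the 3 loci and 2 libraries the miR-1 or miR-206 partner had the higher count in 5 of 6 values. The unique counts of Mir206 and Mir133b summed to 2687218 in replicate 1 and 4216052 in replicate 2. Those of Mir1a-1 and Mir133a-2 summed to 31 and 38, and those of Mir1a-2 and Mir133a-1 to 41 and 46. Reads that fit both Mir1a copies or both Mir133a copies are missing from the sums and partner ratios of their loci. How the loci or their partners compare with those reads included was not tested.

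Mir1b (ENSMUSG00000080662.1; chromosome 18, 10785446 to 10785567) lies over Mir1a-2 on the opposite strand. Replicate 1 gave it 35 counts and replicate 2 gave it 96, against 32 and 18 for Mir1a-2. Of the unique counts on the strands of this hairpin site, Mir1b held 52.2% in replicate 1 (exact 95% interval 39.7 to 64.6) and 84.2% in replicate 2 (76.2 to 90.4). Reads of the 28 bases that Mir1a-2 shares with Mir1a-1 are missing from these shares. Mir1b can lack reads of the complement of those bases, as described below. How the strands compare with such reads included was not tested. The deposited opposite-strand column gave the mirror image, with 35 and 96 counts opposite Mir1a-2, and the other 6 genes had 0 opposite-strand counts in both libraries. In the either-strand column, where reads over both genes are ambiguous, Mir1a-2 and Mir1b had 0 counts.

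Of the counts of the miR-1a copies, Mir1a-1 held 41.8% in replicate 1 (exact 95% interval 28.7 to 55.9) and Mir1a-2 the rest. In replicate 2 Mir1a-1 held 60.9% (45.4 to 74.9), so the copies could not be told from equal in either library. Of the counts of the miR-133a copies, Mir133a-2 held 47.1% in replicate 1 (23.0 to 72.2). In replicate 2 it held 26.3% (13.4 to 43.1), below Mir133a-1 by more than counting error. Summed, the miR-1a copies had 55 and 46 counts and the miR-133a copies 17 and 38.

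Which reads can be given to a copy was measured from the annotated hairpins. Every stretch of 20 bases of each hairpin was looked up on the sense strand of the other 2201 hairpins. On that strand Mir206, Mir1b and Mir133c shared none. Mir1a-1 and Mir1a-2 shared a run of 28 bases, positions 45 to 72 of Mir1a-1, and the stretch most like miR-206-3p (49 to 70) lies wholly inside it. Mir133a-2 and Mir133a-1 shared runs of 24 and 31 bases, and the stretch of Mir133a-2 most like miR-133b-3p (59 to 80) lies inside the longer. A read that lies wholly in those stretches fits both copies and cannot be given to either, so the unique counts of these 4 genes do not measure their 3p arms. In the Mir133a hairpins the shorter run (21 to 44 of Mir133a-2) also covers the stretch most like miR-133b-5p (23 to 44), so their unique counts, partner ratios and copy shares do not measure the 5p arm either. Opposite strands were not searched, and Mir1b lies opposite Mir1a-2. A Mir1b read from the complement of the 28-base run would also fit the strand opposite Mir1a-1. The unique counts of Mir1b can therefore lack such reads.

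Mir133b stood between these cases. Its shared run was 21 bases long, positions 66 to 86, and is miR-133b-3p without its last base. Of its windows of 20 bases 2 of 100 were shared with the Mir133a hairpins, of its windows of 18 bases 4 of 102, and of its windows of 22 bases 0 of 98. A full-length miR-133b-3p read is therefore unique among the hairpins, and one that lacks the last base is not. The share of such shorter reads was not tested, since the tables hold no read lengths. The Mir133b level and the ratio of Mir206 to Mir133b are uncertain for that reason, as are the levels of the Mir1a and Mir133a copies.

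**Figure D2:**
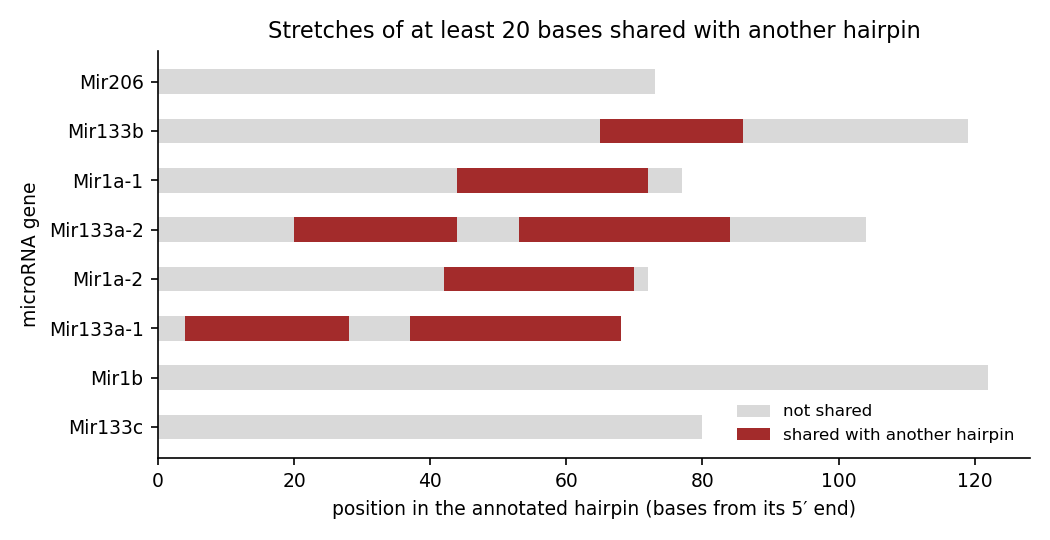
Positions along each annotated hairpin (bases from its 5′ end). Red marks stretches of at least 20 bases found on the sense strand of another annotated hairpin, and grey marks the rest. Mir206, Mir1b and Mir133c have no red stretch, Mir133b has 1 of 21 bases, the Mir1a hairpins 1 of 28 bases each, and the Mir133a hairpins runs of 24 and 31 bases.

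With that limit, Mir206 had 46982 times the summed unique counts of the miR-1a copies in replicate 1 and 89387 times in replicate 2. Mir133b had 6069 times those of the miR-133a copies in replicate 1 and 2744 times in replicate 2. Multi-mapped reads numbered 3378438 and 3295854, against 72 and 84 unique counts for the 4 copies, and how many of them came from these hairpins was not analysed here. Among all measured genes, 80 of 1084 genes (7.38%) that share 20 bases with another hairpin were detected, against 234 of 1118 (20.9%) that share none. By mature sequence, 43 of 94 genes in RefSeq's table with an arm also made by another gene were detected (45.7%), and 235 of 924 without one (25.4%).

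The ratio within the Mir206 pair was then set beside all neighbouring microRNA genes on the same strand at most 10 kb apart. Of 353 such pairs, 55 had both partners detected. The median pair differed 6.51-fold in replicate 1 and 7.06-fold in replicate 2. A ratio of at least 10-fold in the same direction in both libraries was found in 17 of the 55 pairs (30.9%), and Mir206 with Mir133b was 1 of the 17, at rank 12 by the smaller of its ratios.

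The 3 most uneven pairs were Mir29a over Mir29b-1 (989-fold and 714-fold in replicates 1 and 2), Mir100 over Mirlet7a-2 (734-fold and 613-fold) and Mir99a over Mirlet7c-1 (401-fold and 342-fold). In each of them the lower partner shares 22 bases with another hairpin. Such sharing was present in 13 of the 17 pairs. Without pairs of that kind, 4 of 33 (12.1%) remained at 10-fold or more, and the median pair differed 3.39-fold in replicate 1 and 2.85-fold in replicate 2. Among these 33, the Mir206 pair ranked 3, after Mir130b over Mir301b (227-fold and 273-fold) and Mir18 over Mir19a (80.2-fold and 32.3-fold). This narrower set was chosen after the values were seen. By the 20-base rule used for the hairpins above, Mir133b shares sequence with the Mir133a hairpins, and the Mir206 pair would leave this set.

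**Figure D3:**
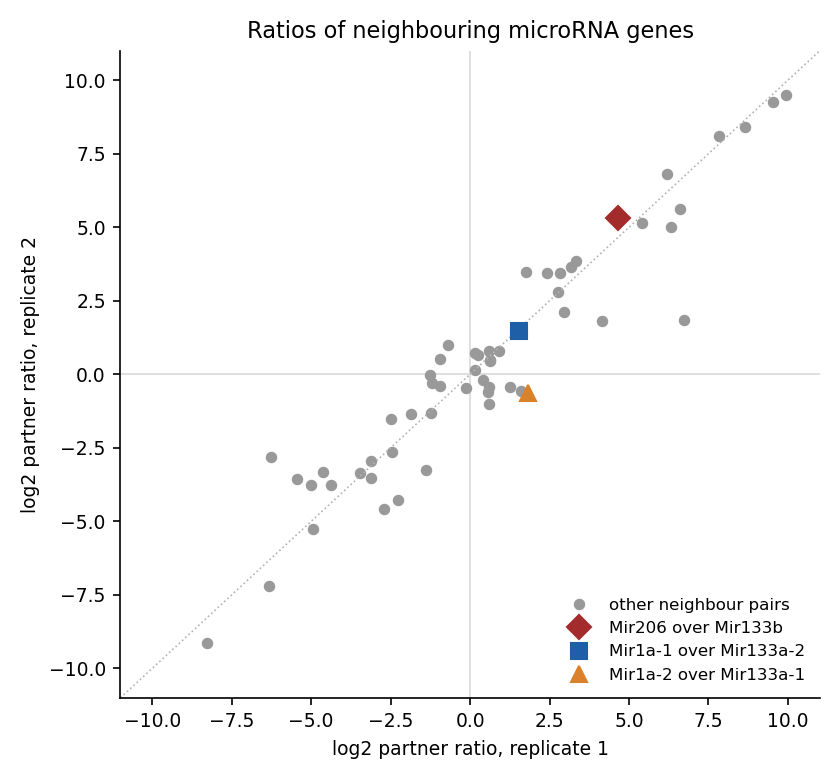
log2 ratio of the counts of neighbouring same-strand microRNA genes in replicate 1 (x axis) and replicate 2 (y axis), with grey points for the other 54 pairs with both partners detected, coloured marks for the 3 loci described and a dotted line of equal ratios. The Mir206 pair lies at 4.65 and 5.30 among other uneven pairs, and the pair of Mir1a-2 and Mir133a-1 is above 0 in replicate 1 and below 0 in replicate 2.

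The partner ratios also differed between the libraries. The log2 ratio of Mir206 to Mir133b was 4.65 in replicate 1 and 5.30 in replicate 2, a difference of 0.66. The median of that difference over the 55 pairs was 0.63, and 26 pairs had a larger one. The log2 ratio of Mir1a-2 to Mir133a-1 differed by 2.47, and that of Mir1a-1 to Mir133a-2 by 0.04, both on few counts.

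Between the libraries, Mir206 was 1.22-fold higher in replicate 2 and Mir133b 1.29-fold higher in replicate 1. The counts of each of the 314 detected genes were compared by an exact binomial test (two-sided, with library totals as scaling and Benjamini-Hochberg adjustment over the 314). In that test 4 of the 5 detected genes of the family had an adjusted p below 0.05. In all, 209 of the 314 genes (66.6%) passed, so the count for these genes is near the background. The test compares these libraries and not conditions. For Mir206 and Mir133b the adjusted p was below the smallest number that the computation can hold.

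Among the sparse genes, Mir1b was 2.11-fold higher in replicate 2 (log2 ratio 1.08, adjusted p = 0.000176, exact binomial test). Mir1a-2, on the opposite strand of the same site, was 2.31-fold higher in replicate 1 (log2 ratio of replicate 2 over replicate 1 −1.21, adjusted p = 0.00667, exact binomial test). Mir1a-1 had 3.03 and 2.84 CPM and did not pass (adjusted p = 0.917, exact binomial test). Mir133a-1, Mir133a-2 and Mir133c had fewer than 10 counts in a library and were not tested. The median absolute log2 ratio was 0.36 for the 5 detected genes and 0.51 for all 314.

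**Figure D4:**
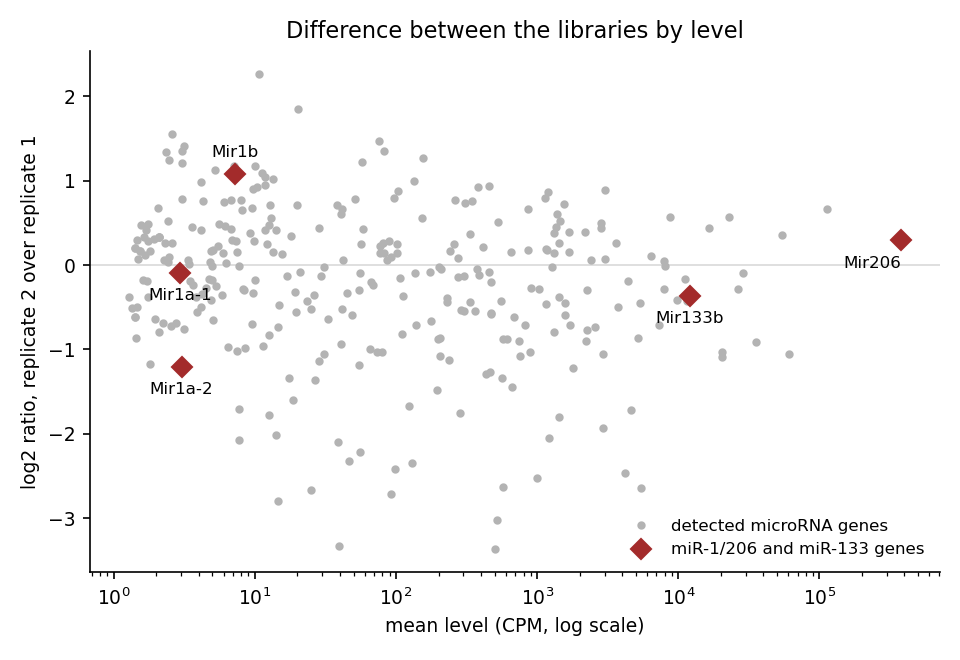
log2 ratio of replicate 2 over replicate 1 against mean CPM (log axis) for the 314 detected genes (grey) and the 5 detected genes of the miR-1, miR-206 and miR-133 families (red). Mir206 and Mir1b lie above 0, Mir133b and Mir1a-2 below, and Mir1a-1 at −0.10.

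Other muscle-enriched microRNAs give the setting for these levels. Of 9 listed genes 8 were found by symbol and all 8 were detected. Mir486b was not found under that symbol, and other names were not searched. By the same exact binomial test with adjustment over all 314 genes, 6 had higher counts in replicate 2, 1 had higher counts in replicate 1 and 1 did not pass. Of all 314 genes, 89 (28.3%) were called higher in replicate 2 and 120 (38.2%) in replicate 1. Of the 6, 4 belong to 1 family, Mir378a to Mir378d. Mir378a, in an intron of the coactivator gene Ppargc1b, reached 87515 CPM (replicate 1) and 138481 CPM (replicate 2) and ranked 2 behind Mir206. Mir499, of the myosin gene Myh7b, had 564 and 378 CPM. Mir208b, of the slow myosin gene Myh7, had 260.4 and 495 CPM, and Mir208a, of the cardiac myosin gene Myh6, had 7.12 and 13.5 CPM. Mir486, of the ankyrin gene Ank1, had 31.1 and 30.7 CPM and was the gene that did not pass. Mir486, Mir378a and Mir378c share 20 bases with another hairpin, so reads that fit both hairpins are missing from their counts. Mir378c, Mir378d and Mir378b had means of 97.5, 38.1 and 9.57 CPM. Within this list Mir133b would stand between Mir378a and Mir499, whereas the unique counts of the Mir1a and Mir133a copies were below those of Mir208a.

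By distance of log2(CPM + 1) over the 2 libraries, the genes nearest to Mir206 were Mir378a (distance 2.52), Mir22 (3.96) and Mir21a (3.97). Each of them was far from it, because no other gene came near its level. Nearest to Mir133b were Mir23b (distance 0.10; 13280 and 9884 CPM), Mir99b (0.21; 11805 and 10530 CPM) and Mir140 (0.45; 11153 and 8339 CPM). Each of these 3 was, like Mir133b, lower in replicate 2. Likeness over 2 libraries is a description of level alone.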

How the data were processed

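MicroRNA-seq libraries of total RNA from C2C12 myocytes (72 h of differentiation, 1 group, n = 2 biological replicates) were analysed. Per the labels, inserts were short and adapters were trimmed. Build mm10 and annotation GENCODE M21 are stated in the deposited notes. Which aligner and counter were run is not given in the sources used here. Deposited by the authors were counts: whole reads per microRNA gene in 3 columns (either, sense and opposite strand) with 4 entries that name no gene. The sense column was used. The multi-mapped entry (22.01% and 17.9% of reads), unmapped reads (22.7% and 23.1%) and reads of no gene (5.88% and 5.57%) stayed out of totals and tests. Because multi-mapped reads have their own entry, the counts were read as uniquely mapped.

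CPM, partner ratios and exact (Clopper-Pearson) 95% intervals were computed from the deposited counts. PCR copies carry no molecular identifiers, so intervals and limits cover counting error only. Genes with at least 10 counts in each library were tested for a difference between the libraries by an exact binomial test (two-sided, totals as scaling). P-values were adjusted by Benjamini-Hochberg over all such genes, and the threshold was 0.05. A fit with edgeR was not used for this, since 1 group holds no contrast. The test was checked on simulated data. Hairpins came from GENCODE M21 transcripts and printed sequences from RefSeq (GRCm38.p6, matched by symbol). No genome was used, so sequence sharing was measured only among annotated hairpins and on their sense strand. Genes named are the 8 genes, the 3 nearest to Mir206 and to Mir133b in log2(CPM + 1), the 3 most uneven neighbour pairs and the other muscle-enriched list. Pairs ranked without shared sequence, and both genes with the miR-206-3p seed, were named after their values were seen. Members and lists were chosen with earlier results of these data known. Alternatives were the either-strand column, all reads as denominator, TMM factors (edgeR 4.0.16), DESeq2 1.42.0 size factors, minimums of 1 and 100 counts, windows of 2 and 50 kb, copies summed and each replicate left out. Python 3.11.15, numpy 2.4.6, pandas 2.3.3, scipy 1.17.1, matplotlib 3.10.9 and R 4.3.3 were used.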

Additional observations from a re-analysis of the deposited data

Results flagged for a closer look

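Multi-mapped reads enter no gene count and so no comparison here. They numbered 3378438 in replicate 1 and 3295854 in replicate 2, over the whole of each library. They were singled out because they are a signal outside the main measurement, and reads of the shared stretches of the Mir1a and Mir133a copies would be counted in this entry. Their origin was not analysed here.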

How the results depend on the processing

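With all reads as denominator, the Mir206 share was 19.6% in place of 37.9% and Mir133b had 6186 CPM in place of 12089. In the either-strand column the Mir206 share was 43.4% and the ratio of Mir1a-2 to Mir133a-1 was 0, because reads over Mir1a-2 and Mir1b are ambiguous there. With copies summed, the ratio of miR-1a to miR-133a was 2.22 ± 1.43 (SD, n = 2), below the 2.84 of Mir1a-1 to Mir133a-2. Of the neighbour pairs, 9 of 41 were at least 10-fold uneven with a minimum of 100 counts, and 4 of 33 without 22 shared bases, against 17 of 55. The sign for Mir1a-1 turned with TMM factors (log2 ratio 0.0019, adjusted p = 1.00, exact binomial test). With each replicate left out in turn, the Mir206 share ranged from 34.1% to 41.7%, the ratio of Mir206 to Mir133b from 25.04 to 39.4, and the ratio of Mir1a-2 to Mir133a-1 from 0.643 to 3.56. The count of genes that differed between the libraries ranged from 166 of 187 with a minimum of 100 counts to 227 of 555 with a minimum of 1. Copies could not be summed for Mir206 and Mir133b, which have none. No paired analysis was possible because the series has 1 group. The Mir1a and Mir133a genes had 8 to 32 counts a library and Mir133c had 0, so their values carry wide counting intervals.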

Other observations

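In 47 of the 55 neighbour pairs the same partner was higher in both libraries, and it was the 5′ partner of the pair in 26 of the 47. Mir206, which lies 5′ of Mir133b, is among these 26. The count is a description of these libraries, and no test was made of it.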
